A study of Mus musculus with 14 samples.

Results

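To learn which genes set Notch1+ cells of the early developing retina apart from the tissue they came from, E14 Notch1+ cells were compared with E14 whole retina. The arrays were chosen by their labels alone and were 6 of the 14 arrays of the series, 3 of E14 Notch1+ cells and 3 of E14 whole retina, all from C57BL/6 mice at embryonic day 14. The other 8 arrays were of P0 Notch1+ cells and P0 whole retina, 4 of each, and were used in the filter on dim probes, in the choice of a probe for each gene, in the estimate of the spread and in a comparison of the stages for single genes. For the Notch1+ cells, retinas pooled from many eyes in each preparation were dissociated with papain, labelled with a biotin-coupled antibody to Notch1 and held on a magnetic column by beads that bind biotin, while RNA of the whole retina was taken without selection.

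The replicates are described as independent biological replicates, and each RNA was amplified, labelled with biotin and hybridized alone to 1 MEEBO array of long oligonucleotide probes. Whole retina contains the Notch1+ cells too, so each difference is that of a fraction from the tissue that includes it. In such bulk samples, fewer cells of a type and less RNA per cell cannot be told apart. The methods do not say whether whole retinas were dissociated before their RNA was taken, so handling and cell fraction cannot be told apart either.

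As background, Notch1 is a receptor on the cell surface that is cut when a ligand of the Delta or Jagged families on a neighbouring cell binds it, and the freed part enters the nucleus with the DNA-binding protein Rbpj to switch on repressors of the Hes and Hey families. In the embryonic retina this keeps progenitors dividing. Cells with less Notch activity leave the cycle as ganglion cells, cones, horizontal cells and amacrine cells, of which ganglion cells are born earliest. Newly born neurons then make cytoskeletal, axonal and synaptic proteins.

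Values are background-corrected and quantile-normalized intensities in array units, and a difference is the log2 of Notch1+ cells over whole retina with its SE from limma. On each array a probe counted as above background if the median of its spot lay over 2 SDs of the surrounding pixels above their own median. This held for 9332, 10290 and 10648 of the 34312 mouse probes in Notch1+ replicates 1 to 3 and for 11315, 11975 and 10609 in whole retina replicates 1 to 3. All 6 arrays were scanned on the same day, and 5 of them, all but Notch1+ replicate 2, are noted in their files as dipped a further time. Over the tested probes, arrays of Notch1+ cells correlated at 0.904 to 0.933 with each other and at 0.863 to 0.916 with arrays of whole retina, which correlated at 0.931 to 0.949 with each other. Notch1+ replicate 1 was the array of its group that correlated least with the others, and Notch1+ replicate 3 correlated more closely with whole retina replicate 1 (0.916) than with Notch1+ replicate 1 (0.908).

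Of the 13683 probes above background on at least 3 of the 14 arrays, 365 (2.67%) were called higher and 443 (3.24%) lower in Notch1+ cells, at an adjusted p under 0.05. Notch1+ and whole retina arrays were fully separated for 805 of these 808 probes, against 25.6% of all tested probes. More than 2-fold differences were found for 240 of the higher and 306 of the lower probes, and more than 4-fold differences for 28 and 54. The fitted called differences ran from -4.44 for Sncg to 5.65 for Fos on the log2 scale, the latter against a whole retina value at background, with a median of 1.14 among the higher and -1.21 among the lower probes, while the median over all tested probes was 0.006. Of the higher probes, 87 were above background on no array of whole retina, and of the lower probes 166 exceeded background on none of the Notch1+ arrays. Among the E14 arrays, such probes could pass the filter on dim probes only through the other group. The filter thus favours these directions, and counts of lists that hold such probes are descriptions. For named genes of this kind the fold is given as a lower bound, which is smaller than the fitted fold. It only raises values of the dim group that lie under the lowest value above background on their array. It takes no account of the SE, so "at least" below refers to this estimate. For Pou4f2 (1.8 against a fitted 1.84) and Gadd45g (2.85 against 2.91) it lies close to the fitted fold. Taken as 1 probe for each of 8979 genes, 235 genes (2.62%) were higher and 332 (3.7%) lower.

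The 6 E14 arrays alone called 153 higher and 263 lower probes. Leaving out a single array also lowered the counts, most of all without whole retina replicate 3 (181 higher, 281 lower), whole retina replicate 2 (200 and 295) and Notch1+ replicate 1 (213 and 274), and without whole retina replicate 1 there were 275 and 281. Of the 120 called genes named here, 66 were called in all 6 of these fits, and called genes given below with their value on each array are among them unless stated otherwise. With the 6 E14 arrays alone, Cfl1, Ebf2, Eya2, Fgf3, Hes5, Klf4, Mafk, Maml2, Pou4f2, Ppp1r15a and Stmn3, all called in each of those 6 fits, missed the threshold (adjusted p = 0.0527 for Cfl1 to 0.0866 for Hes5).

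**Figure D1:**
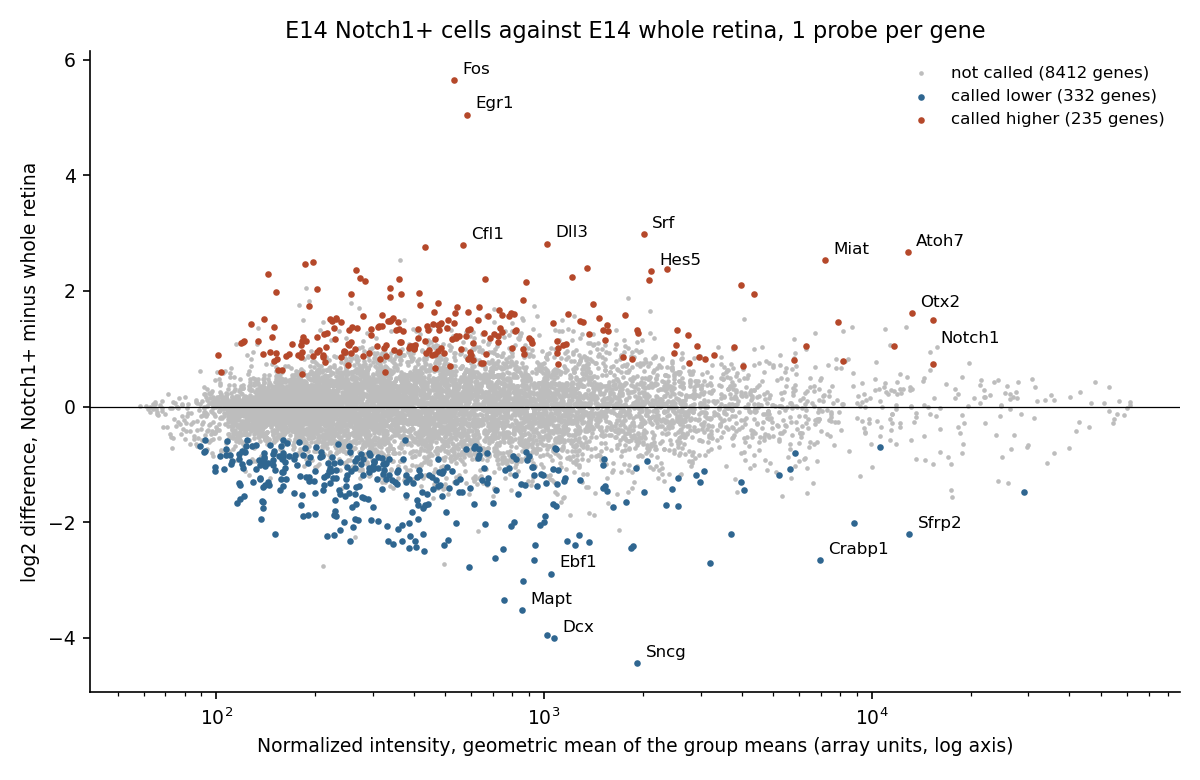
Log2 difference of E14 Notch1+ cells minus E14 whole retina (vertical axis) against the geometric mean of the group means of normalized intensity (horizontal log axis, array units), 1 point for each of the 8979 tested genes, with fitted values also for genes at background in a group. The 235 genes called higher are red and the 332 called lower are blue; Fos and Egr1 lie far above all other genes and Sncg and Dcx are the lowest.

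Notch1 itself, the receptor used for the selection, was brighter in the selected cells. Its intensities were 21070, 31869 and 23910 in Notch1+ cells and 11354, 7375 and 8681 in whole retina. Every Notch1+ array lay above every array of whole retina, with a log2 difference of 1.49 (SE 0.33, adjusted p = 0.0174). The call was lost without Notch1+ replicate 2 (1.32, adjusted p = 0.0642), whole retina replicate 2 (1.35, adjusted p = 0.0748) or whole retina replicate 3 (1.46, adjusted p = 0.0619). Notch3, a receptor found on progenitors and on cells of vessel walls, went the other way. It had 779, 780 and 925 in Notch1+ cells and 2015, 2248 and 1728 in whole retina, a log2 difference of -1.27 (SE 0.22, adjusted p = 0.00475). Notch4, an endothelial receptor, was low in both and differed by 0.40 (SE 0.21, adjusted p = 0.319), and Notch2 was on the array but was not tested because it was above background on too few arrays.

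Among the ligands, Dll3, a Delta-like protein that stays inside the cell, was the only 1 of 6 tested genes to pass the test. Its intensities were 4375, 2388 and 1422 in Notch1+ cells and 282, 618 and 241 in whole retina. The groups did not overlap, and the log2 difference was 2.82 (SE 0.46, adjusted p = 0.00304). Dll1 and Dll4, the ligands that activate Notch from neighbouring cells, differed by 1.06 (SE 0.55, adjusted p = 0.324) and 0.77 (SE 0.52, adjusted p = 0.477), with overlapping arrays. Jag1, Dner and Dlk2 differed by -0.19, -0.69 and -0.16 and did not pass either.

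Hes5, a repressor that Notch switches on in neural progenitors, was higher in Notch1+ cells, and the other repressors were not called. Hes5 had 10000, 1884 and 4068 in Notch1+ cells and 952, 749 and 830 in whole retina. The lowest Notch1+ array was still above the highest of whole retina, and the log2 difference was 2.34 (SE 0.46, adjusted p = 0.00878), with 1.72 at the least when an array was left out and an adjusted p of 0.0866 with the 6 E14 arrays alone. Hes1, a related target, had 2009, 1224 and 675 in Notch1+ cells and 2749, 4712 and 1080 in whole retina, which overlapped (log2 difference -1.03, SE 0.62, adjusted p = 0.412). Hes6, which counters Hes1, had a log2 difference of 0.94 (SE 0.32, adjusted p = 0.115) and no overlap. Over the 11 tested targets, 1 was higher and 0 lower, against 2.62% and 3.7% of all genes, with a median of -0.18 against -0.012 over all tested genes.

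Genes that process the receptor or act on its ligands had 3 of 22 tested members higher, against 2.62% of all genes, and 0 lower. They were Mfng, a Fringe enzyme that adds sugar to Notch (1.36, SE 0.36, adjusted p = 0.0438), Ncstn, a subunit of the gamma-secretase that frees the inner part of the receptor (1.04, SE 0.25, adjusted p = 0.0259), and Mib1, the ubiquitin ligase that ligands need for their uptake (0.97, SE 0.22, adjusted p = 0.0204). None of these 3 calls held in all fits without an array: the adjusted p reached 0.151 for Mfng without whole retina replicate 2, 0.112 for Ncstn without whole retina replicate 2 and 0.0851 for Mib1 without Notch1+ replicate 1. A second Mfng probe differed by 0.77 (adjusted p = 0.225). Mib1 was dim, above background on only 1 Notch1+ array and 2 arrays of whole retina. Of the 14 tested nuclear partners, Maml2, a coactivator of the Rbpj complex, was lower with 409, 300 and 553 in Notch1+ cells and 1032, 854 and 1073 in whole retina (-1.27, SE 0.24, adjusted p = 0.00771), and Rbpj differed by -0.13.

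**Figure D2:**
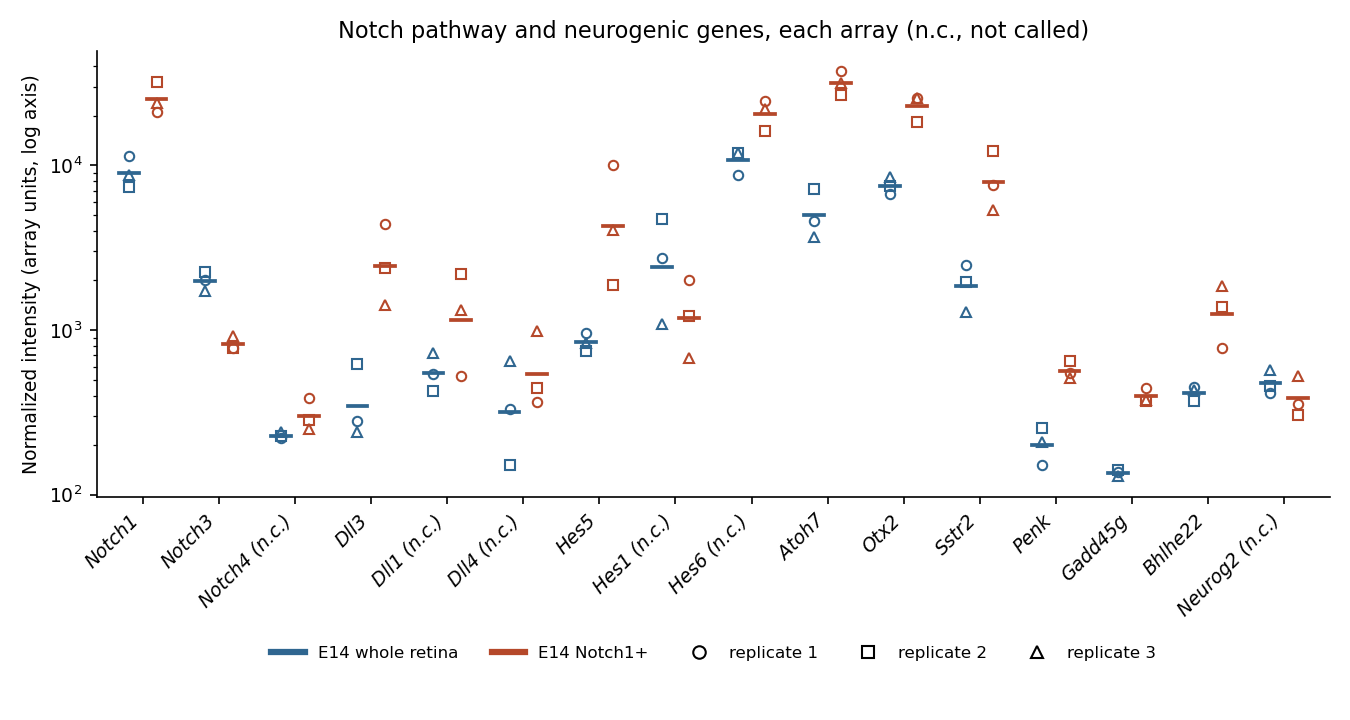
Normalized intensity on each array (vertical log axis, array units) of genes of the Notch pathway and of neurogenesis, with whole retina in blue and Notch1+ cells in red, a symbol for each replicate, and a bar at the geometric mean. Dll3, Hes5, Atoh7 and Otx2 stand higher on all 3 Notch1+ arrays, Notch3 stands lower, and n.c. marks genes that were not called, such as Dll1 and Hes1.

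Atoh7, the factor that makes progenitors competent to become ganglion cells, was higher in the Notch1+ cells. It reached 37306, 26867 and 31513 in Notch1+ cells and 4608, 7220 and 3686 in whole retina. The groups lay far apart, with a log2 difference of 2.67 (SE 0.34, adjusted p = 0.000601). Of the 27 tested neurogenic and cell cycle exit genes, 7 were higher and 1 lower, with a median of 0.45, against 2.62% and 3.7% of all genes. This list also holds Sstr2 and Penk, which encode a receptor and peptides. The gene lists, this one among them, were chosen with earlier results of these data known, so their counts are descriptions.

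The other higher members included receptors and peptides as well as factors. Sstr2, a somatostatin receptor, had 7633, 12191 and 5325 in Notch1+ cells and 2464, 1947 and 1292 in whole retina (2.11, SE 0.43, adjusted p = 0.0103), a call lost only without whole retina replicate 3 (1.85, adjusted p = 0.0520). Penk, which encodes enkephalin peptides, had 545, 646 and 514 against 151, 255 and 209 (1.5, SE 0.20, adjusted p = 0.000819). Gadd45g, a gene of cells about to leave the cycle, had 444, 369 and 377 in Notch1+ cells and was above background on no array of whole retina, which made it at least 2.85-fold higher (adjusted p = 0.00909). None of these 3 genes overlapped between the groups. Bhlhe22, a factor of amacrine and bipolar neurons, had a log2 difference of 1.59 (SE 0.40, adjusted p = 0.0319), and its call held only without Notch1+ replicate 1, with adjusted p-values of 0.0711 to 0.112 without any other array. Rcor2, a corepressor partner, was higher by 1.23 (SE 0.22, adjusted p = 0.00497) and Onecut1, a factor of ganglion and horizontal precursors, by 1.11 (SE 0.25, adjusted p = 0.0189), although a second probe of Onecut1 differed by 0.37 (adjusted p = 0.549) and its call was lost without Notch1+ replicate 1 (0.81, adjusted p = 0.0664), whole retina replicate 1 (1.05, adjusted p = 0.0664) or whole retina replicate 3 (1.11, adjusted p = 0.0614).

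The proneural factor Neurog2, which starts neurogenesis in progenitors, had 357, 305 and 529 in Notch1+ cells and 413, 459 and 571 in whole retina and did not pass the test (-0.30, SE 0.59, adjusted p = 0.855). Sox12, a factor of differentiating neurons, was the lower member (-0.80, SE 0.17, adjusted p = 0.0133), and without whole retina replicate 1 it had an adjusted p of 0.0532.

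Otx2, the factor that directs precursors to the photoreceptor fate, was higher in Notch1+ cells, with 25458, 18272 and 25669 against 6676, 7481 and 8461 in whole retina. The groups were well separated (log2 difference 1.61, SE 0.18, adjusted p = 0.000291). The later photoreceptor factor Crx had 867, 767 and 311 in Notch1+ cells and 299, 381 and 374 in whole retina and did not pass (0.76, SE 0.49, adjusted p = 0.454), nor did Rorb (1.03, SE 0.44, adjusted p = 0.217). Gngt2, a cone transducin subunit, and Rxrg, a nuclear receptor of cones and ganglion cells, were lower by -1.61 (SE 0.39, adjusted p = 0.0269) and -1.32 (SE 0.18, adjusted p = 0.000968) on the log2 scale, the former only while Notch1+ replicates 1 and 2 and whole retina replicates 1 and 3 were all kept (adjusted p = 0.116 without whole retina replicate 3). Of the 17 tested photoreceptor genes, 6 were above background on no E14 array, and the median was -0.00.

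Ganglion cell factors were split, with 10 of 27 tested members lower, 3 higher and a median of -0.66, against 3.7% and 2.62% of all genes. Ebf1, a factor of young neurons, had 457, 303 and 391 in Notch1+ cells and 3531, 2452 and 2571 in whole retina (-2.89, SE 0.39, adjusted p = 0.000788). Elavl4, an RNA-binding protein of neurons, had 1552, 1237 and 1009 against 9274, 6994 and 8220 (-2.70, SE 0.40, adjusted p = 0.00162), with a second probe lower by -1.64 (adjusted p = 0.00658) and a further probe, dim in both groups, at 0.17 (adjusted p = 0.666). For both genes all 3 whole retina arrays were several times brighter than any Notch1+ array. Isl1, a factor that ganglion cells need to mature, had 498, 1506 and 548 in Notch1+ cells and 3009, 5261 and 3978 in whole retina (-2.42, SE 0.50, adjusted p = 0.0115), and it had an adjusted p of 0.0529 without Notch1+ replicate 1 and 0.0503 without whole retina replicate 2.

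Dim members of the same list were also lower. Pou4f2, which acts with Isl1, was above background on no Notch1+ array and on all 3 of whole retina, where it had 206, 311 and 271, at least 1.8-fold higher in whole retina (adjusted p = 0.00840). Irx2, Irx4, Irx5 and Eomes, further ganglion cell factors, showed the same pattern, with bounds of at least 1.69-fold (adjusted p = 0.000259), 1.75-fold (adjusted p = 0.00127), 2.13-fold (adjusted p = 0.00860) and 1.44-fold (adjusted p = 0.00143). Among the E14 arrays, Pou4f2 and these factors passed the filter on dim probes through whole retina alone. The filter favours this direction, so the count of lower ganglion cell factors is a description. Elavl2 and Rbpms, which encode RNA-binding proteins, were lower by -1.83 (SE 0.32, adjusted p = 0.00466) and -1.11 (SE 0.20, adjusted p = 0.00558), with a second probe of Rbpms at -0.51 (adjusted p = 0.168).

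The 3 higher members were Ebf2, Eya2 and Dlx1. Ebf2, a relative of Ebf1, had 716, 632 and 344 in Notch1+ cells and 149, 215 and 183 in whole retina (1.58, SE 0.26, adjusted p = 0.00314), so that the 2 relatives differed in opposite directions with no overlap for either. Eya2, a coactivator of homeobox factors, had 1454, 828 and 639 against 356, 389 and 337 (1.35, SE 0.26, adjusted p = 0.00714), while a second probe differed by 0.65 (adjusted p = 0.13). Dlx1, a homeobox factor of ganglion cell precursors, had 4392, 3364 and 4294 against 1226, 1597 and 2029 (1.33, SE 0.30, adjusted p = 0.0178), a call lost without any 1 of Notch1+ replicates 1 and 3 and whole retina replicates 1 and 2 (adjusted p = 0.0541 to 0.0739). Its neighbour Dlx2 differed by 0.82 (SE 0.28, adjusted p = 0.109), and Isl2 by 0.34 (SE 0.38, adjusted p = 0.719).

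Genes of the neuronal cytoskeleton and of neurite growth were lower in Notch1+ cells, 11 of 31 tested members against 3.7% of all genes, and none was higher. The median was -1.24, and the groups did not overlap for 21 members, against 25.6% of all tested probes. Sncg, the gamma-synuclein gene of ganglion cells, had 643, 234 and 395 in Notch1+ cells and 6594, 8113 and 11456 in whole retina (-4.44, SE 0.36, adjusted p = 3.49e-05). Dcx, the microtubule protein doublecortin of migrating neurons, had 229, 212 and 326 against 2875, 7633 and 3023 (-4.01, SE 0.40, adjusted p = 0.000135), and a second probe was lower by -3.76 (adjusted p = 0.000122). Mapt, the microtubule protein tau, had 315, 196 and 235 against 1797, 3638 and 3340 (-3.52, SE 0.41, adjusted p = 0.000325). In all 3 genes the dimmest whole retina array was far brighter than the brightest Notch1+ array.

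The same held in smaller measure for other members. Gap43, a protein of growing axons, had 328, 244 and 271 in Notch1+ cells and 1453, 4815 and 1632 in whole retina (-3.01, SE 0.37, adjusted p = 0.000486). Stmn3, which destabilizes microtubules, and Rtn1, a reticulon of neurons, were lower by -2.65 (SE 0.46, adjusted p = 0.00452) and -2.40 (SE 0.36, adjusted p = 0.00160). Nefm, a neurofilament, was above background on no Notch1+ array and was at least 2.89-fold higher in whole retina (adjusted p = 0.000709). Among the E14 arrays, Nefm passed the filter on dim probes through whole retina alone. Nsg2, a vesicle protein of neurons, was lower by -2.33 (SE 0.45, adjusted p = 0.00789). The 3 further calls did not hold in all fits without an array: Tubb2a was called in none of them (-2.62 with all arrays, adjusted p = 0.0426), Map1b was lost without Notch1+ replicate 1, whole retina replicate 1 or whole retina replicate 3 (adjusted p = 0.0568 to 0.0759, second probe -0.95 with adjusted p = 0.193), and Nsg1 without Notch1+ replicate 1, Notch1+ replicate 3 or whole retina replicate 3 (0.0524 to 0.0637). Tubb3, a tubulin of neurons, and Tuba1a differed by -0.16 and 0.24 and did not pass.

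Synaptic and vesicle genes were lower in 8 of 27 tested members (3.7% of all genes) and higher in none, with a median of -0.47. Syt4, a synaptotagmin of vesicles, had 109, 289 and 350 in Notch1+ cells and 2536, 1900 and 2418 in whole retina (-3.35, SE 0.44, adjusted p = 0.000709). The groups did not overlap. The calls of Rab3a, Sv2a, Stx1a, Cplx1, Syt1 and Syp, all between -1.98 and -1.04, were lost in 4 or 5 of the 6 fits without an array, and second probes of Sv2a and Syt1 differed by -1.25 (adjusted p = 0.00247) and -0.16 (adjusted p = 0.806). Of the 29 tested axon guidance and adhesion genes, 3 were lower and 0 higher, against 3.7% and 2.62% of all genes. Dscam, an adhesion protein that spaces neurites, and Sema3a, a repellent of axons, were above background on no Notch1+ array and were at least 3.83-fold (adjusted p = 0.000297) and 3.25-fold (adjusted p = 0.000584) higher in whole retina, and Cntn2, an axonal adhesion protein, was lower by -1.96 (SE 0.24, adjusted p = 0.000458). Among the E14 arrays, Dscam and Sema3a passed the filter on dim probes through whole retina alone.

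Among amacrine and horizontal cell genes, 4 of 22 tested members were lower and 2 higher, against 3.7% and 2.62% of all genes. Of these, Ebf1, Isl1, Bhlhe22 and Onecut1 are given above. Calb2, the calcium-binding protein calretinin of amacrine and ganglion cells, had 142, 164 and 177 in Notch1+ cells and 813, 549 and 1182 in whole retina (-2.33, SE 0.42, adjusted p = 0.00547), and Tfap2a, an amacrine factor, was at least 1.98-fold higher in whole retina (adjusted p = 0.00519). Second probes of Calb2 and Tfap2a differed by -1.01 (adjusted p = 0.0672) and -0.49 (adjusted p = 0.12). Foxn4, which opens the amacrine and horizontal fates, had 578, 1331 and 1330 in Notch1+ cells and 795, 285 and 950 in whole retina (0.75, SE 0.54, adjusted p = 0.514), with overlap. Genes of no list were among the largest falls as well: Vstm2l, of the immunoglobulin superfamily, had 316, 196 and 267 against 4757, 4095 and 3145 (-3.95, SE 0.34, adjusted p = 4.5e-05). Crabp1, which binds retinoic acid, had 3310, 2046 and 2629 against 16764, 27507 and 9687 (-2.66, SE 0.38, adjusted p = 0.00125). Rab6b and Cntnap2 were lower by -2.45 and -2.46, and the protocadherin probes Pcdha2 and Pcdha1 by -2.78 and -2.49, although the genes of that cluster share exons and their probes cannot be assigned to a single member with certainty.

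**Figure D3:**
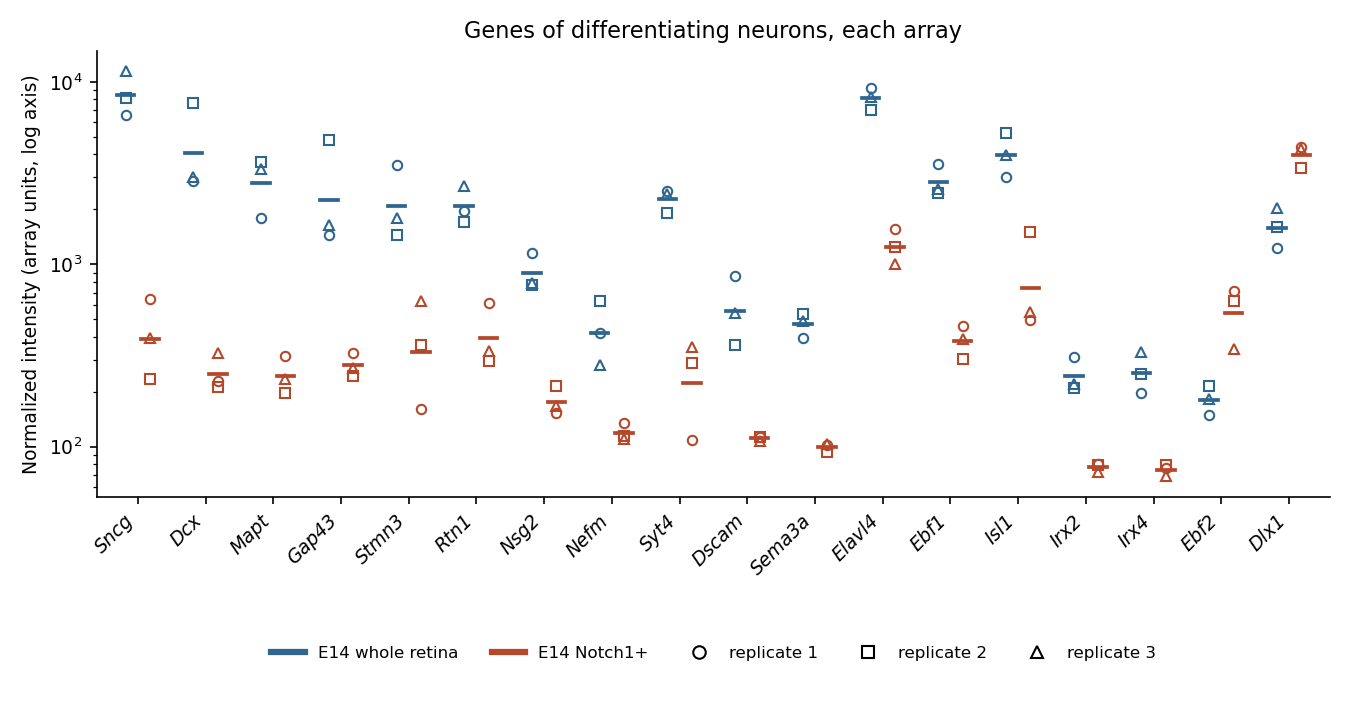
Normalized intensity on each array (vertical log axis, array units) of genes of differentiating neurons, with whole retina in blue and Notch1+ cells in red, a symbol for each replicate, and a bar at the geometric mean. From Sncg to Irx4 the whole retina arrays stand above the Notch1+ arrays, while Ebf2 and Dlx1 on the right stand the other way round.

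Factors that hold retinal progenitors in their state were not raised in the Notch1+ cells: of 25 tested, 0 were higher and 3 lower, against 2.62% and 3.7% of all genes, with a median of -0.42. Sfrp2, a secreted Wnt antagonist made by early progenitors, had 7991, 7149 and 3535 in Notch1+ cells and 27502, 25458 and 28472 in whole retina (-2.21, SE 0.38, adjusted p = 0.00425). Tbx5, a factor of the dorsal retina, had 272, 224 and 174 against 735, 525 and 661 (-1.53, SE 0.28, adjusted p = 0.00632). Vax2, a factor of the ventral retina, was lower by -1.47 (SE 0.40, adjusted p = 0.0461), and its call held only without Notch1+ replicate 2, with an adjusted p up to 0.178 without Notch1+ replicate 1. The core factors gave values on either side of 0 that did not pass, among them Sox2 (-1.06, SE 0.47), Fgf15 (-1.33, SE 0.49), Six6 (-0.65, SE 0.19), Sox9 (-0.54, SE 0.45), Six3 (0.41, SE 0.22) and Pax6 (0.36, SE 0.30). A second probe of Sox2 was called lower (-1.8, adjusted p = 0.0364), and a second probe of Pax6 differed by -0.91 (adjusted p = 0.126). Of the 18 tested genes of radial and Muller glia, Crym and Clu were called lower (3.7% of all genes were), each in some of the fits without an array only (up to adjusted p = 0.145 without whole retina replicate 3 for Crym, and 0.0808 without the same array for Clu).

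Cell cycle genes were taken by phase. Of 47 tested genes of G2 and mitosis, 4 were higher (2.62% of all genes) and 0 lower, with a median of 0.23 and 37 positive values, and of 43 tested S phase genes, 1 was higher and 2 lower (3.7% of all genes), with a median of -0.25 and 11 positive values. Ube2s, a ubiquitin enzyme of mitotic exit, had 13395, 11880 and 13879 in Notch1+ cells and 4827, 3858 and 5547 in whole retina (1.47, SE 0.32, adjusted p = 0.0162). Kif23, a kinesin of cytokinesis, Cdc20, an activator of the anaphase ligase, and Foxm1, a factor of G2 genes, were higher by 1.07, 1.01 and 0.86, although second probes of Cdc20 and Foxm1 differed by 0.23 (adjusted p = 0.749) and 0.25 (adjusted p = 0.812). Uhrf1, which copies DNA methylation after replication, was lower by -1.72 (SE 0.40, adjusted p = 0.0208). None of these calls held in every fit without an array (adjusted p up to 0.0701 for Ube2s without whole retina replicate 2, 0.124 for Kif23 and 0.164 for Cdc20 without whole retina replicate 3, 0.0651 for Foxm1 without whole retina replicate 2, and 0.0913 for Uhrf1 without Notch1+ replicate 1), and the difference between the lists was not tested.

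Chromatin genes had 5 of 47 tested members higher, against 2.62% of all genes, and 1, Uhrf1, lower, with a median of 0.19. The 5 are Rcor2, given above, and Chd7, Brd7, Epc1 and Pbrm1. All are among the network members that the study proposes from these same samples, so the count is a description. Chd7, a remodeler that neurogenesis needs, had 21286, 14439 and 14782 in Notch1+ cells and 7879, 8395 and 7968 in whole retina (1.04, SE 0.20, adjusted p = 0.00684). The groups did not overlap. Brd7, a bromodomain subunit of a remodeling complex, was higher by 2.15 (SE 0.27, adjusted p = 0.000709, 2 whole retina arrays because a spot was marked as bad), but 2 other probes of the gene differed by -0.06 and -0.11. Epc1 (second probe 0.49, adjusted p = 0.552) and Pbrm1 were higher by 1.60 and 1.25 and lost their calls without an array (Epc1 with an adjusted p of 0.0520 without Notch1+ replicate 1 and 0.0507 without whole retina replicate 3, Pbrm1 with 0.128 without whole retina replicate 2). Miat, a long non-coding RNA of neural precursors, was higher, with 29152, 9327 and 14888 in Notch1+ cells and 4166, 2199 and 2314 in whole retina (2.53, SE 0.50, adjusted p = 0.00908), while the imprinted RNA Meg3 had 975, 619 and 1368 against 1084, 601 and 577 (0.38, SE 0.47, adjusted p = 0.749).

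The largest rises of all were in immediate early genes, which cells switch on within minutes of a stimulus through factors already present, among them Srf and the cyclic AMP response element binding protein. Of the 32 tested, 12 were higher and 1 lower, against 2.62% and 3.7% of all genes, with a median of 0.60 and 28 positive values. Of 44 such genes on the array only these 32 were tested. Fos, Egr1, Klf2, Ccn1, Egr3, Egr2, Atf3 and Arc were above background on no whole retina array. Among the E14 arrays they passed the filter on dim probes through Notch1+ cells alone. The filter favours this direction, so the count is a description. Fos, a subunit of the AP-1 factor, had 4038, 3500 and 3790 in Notch1+ cells and 76.2, 75.1 and 74.3 in whole retina, where it was above background on no array. This made Fos at least 28.1-fold brighter in the selected cells (adjusted p = 1.72e-06). Egr1, a zinc finger factor, had 2713, 4836 and 2716 against 105, 97.7 and 95.0, also above background on no array of whole retina, and was at least 24.5-fold higher (adjusted p = 3.39e-06).

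Srf, itself a target of the same response, was higher with 5746, 3891 and 7462 in Notch1+ cells and 699, 554 and 882 in whole retina (2.98, SE 0.34, adjusted p = 0.000297), while a second, dim probe differed by 0.50 (adjusted p = 0.108). Klf4, a zinc finger factor, had 504, 2558 and 762 against 154, 141 and 145 (2.76, SE 0.47, adjusted p = 0.00389), and all 3 of its other probes were called higher too. Klf2, Ccn1, Egr3, Egr2 and Atf3, further factors and a matrix protein (Ccn1), were above background on no array of whole retina, with bounds of at least 3.26-fold (adjusted p = 0.000968), 3.23-fold (adjusted p = 0.000135), 2.34-fold (adjusted p = 0.000325), 2.21-fold (adjusted p = 0.00234) and 1.78-fold (adjusted p = 0.00568). No array of any of these genes overlapped between the groups.

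Mafk, a small Maf factor, was higher by 0.94 (SE 0.18, adjusted p = 0.00832). Dusp1, a phosphatase that shuts off MAP kinases, had 2166, 3435 and 3441 in Notch1+ cells and 1434, 689 and 977 in whole retina (1.58, SE 0.41, adjusted p = 0.0365), with an adjusted p of 0.104 to 0.143 without Notch1+ replicate 2, Notch1+ replicate 3, whole retina replicate 2 or whole retina replicate 3. Arc was at least 1.41-fold higher (adjusted p = 0.0204), a call lost without Notch1+ replicate 2 or any array of whole retina (adjusted p = 0.0516 to 0.0788). The members that did not pass included Jun (0.39), Junb (0.75), Fosb (0.41), Zfp36 (0.83) and Btg2 (0.66). Dusp4, another phosphatase, was the lower member (-0.73, SE 0.19, adjusted p = 0.0334, lost without any array but Notch1+ replicate 2, adjusted p = 0.0728 to 0.113), and its second probe differed by 0.60.

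**Figure D4:**
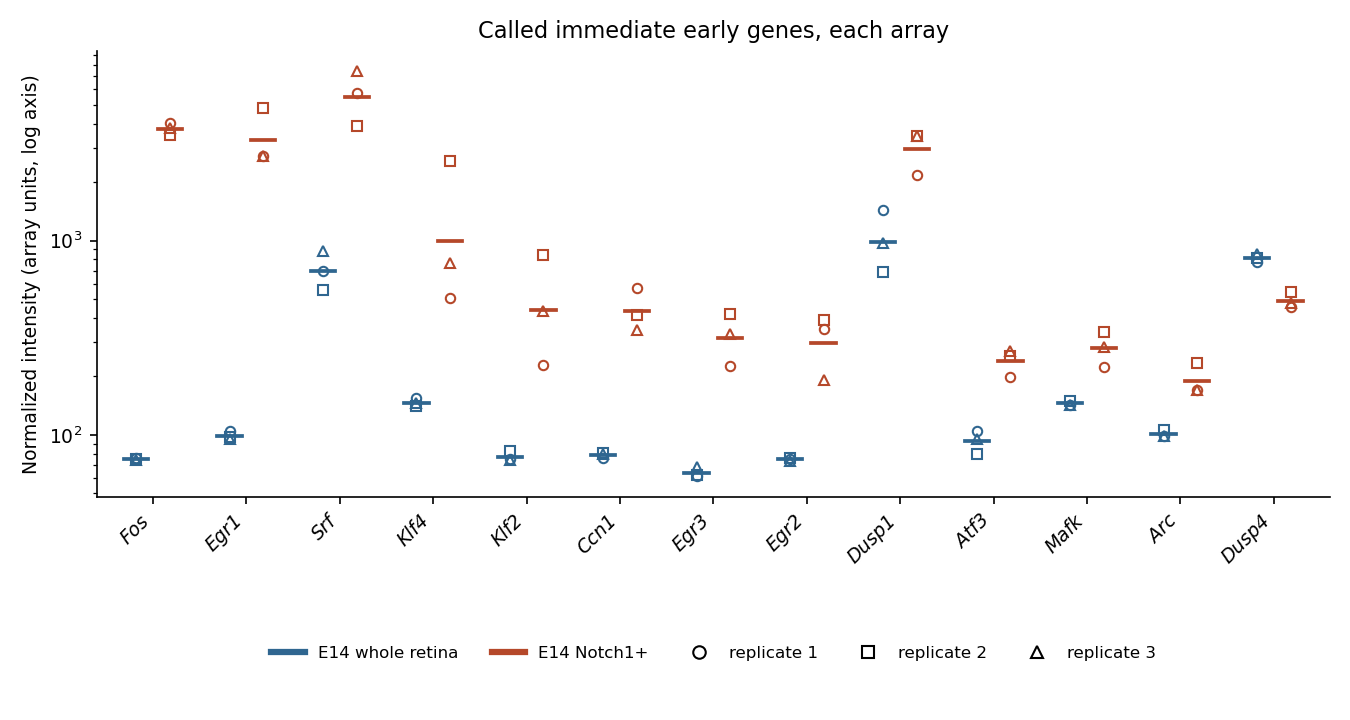
Normalized intensity on each array (vertical log axis, array units) of the 13 called immediate early genes, with whole retina in blue and Notch1+ cells in red, a symbol for each replicate, and a bar at the geometric mean. Fos lies between 3500 and 4038 in Notch1+ cells and between 74.3 and 76.2 in whole retina; Dusp4 alone stands lower in Notch1+ cells.

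Promoters are shown for 3 of the higher immediate early genes and for Hes5, as examples, chosen with their values and motifs seen, of genes whose known regulators bind short motifs near the start. The sequences are the windows of RefSeq on build GRCm38.p6 from 250 bases before to 50 bases after the start, read 5′ to 3′ on the strand of the gene: Srf on chr17:46556113-46556412 (minus strand), Fos on chr12:85473640-85473939 (plus), Dusp1 on chr17:26508423-26508722 (minus) and Hes5 on chr4:154960673-154960972 (plus). Capitals mark, on either strand, the CArG box that Srf binds, the cyclic AMP response element TGACGTCA, its short form TGACG, which lies within the full element too, and the Rbpj motif TGGGAA, which reads TTCCCA where it lies on the other strand.
Srf: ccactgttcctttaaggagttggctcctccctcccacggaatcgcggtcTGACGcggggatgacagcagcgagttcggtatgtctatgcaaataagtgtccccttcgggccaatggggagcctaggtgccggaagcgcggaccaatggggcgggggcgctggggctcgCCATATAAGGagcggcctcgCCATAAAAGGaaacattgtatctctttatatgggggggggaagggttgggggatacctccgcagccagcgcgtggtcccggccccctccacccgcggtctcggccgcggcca
Fos: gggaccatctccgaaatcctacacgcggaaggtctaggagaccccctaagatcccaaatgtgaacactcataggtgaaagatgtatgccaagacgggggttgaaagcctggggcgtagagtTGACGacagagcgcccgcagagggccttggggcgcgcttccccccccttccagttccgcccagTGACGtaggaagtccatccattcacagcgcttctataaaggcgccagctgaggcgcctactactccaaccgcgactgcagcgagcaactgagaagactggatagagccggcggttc
Dusp1: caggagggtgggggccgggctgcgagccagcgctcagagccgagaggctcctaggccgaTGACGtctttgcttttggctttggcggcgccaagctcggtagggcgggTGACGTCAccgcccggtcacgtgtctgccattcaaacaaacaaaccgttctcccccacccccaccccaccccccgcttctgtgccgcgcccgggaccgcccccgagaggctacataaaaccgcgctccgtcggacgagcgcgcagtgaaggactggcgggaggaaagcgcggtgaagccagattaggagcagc
Hes5: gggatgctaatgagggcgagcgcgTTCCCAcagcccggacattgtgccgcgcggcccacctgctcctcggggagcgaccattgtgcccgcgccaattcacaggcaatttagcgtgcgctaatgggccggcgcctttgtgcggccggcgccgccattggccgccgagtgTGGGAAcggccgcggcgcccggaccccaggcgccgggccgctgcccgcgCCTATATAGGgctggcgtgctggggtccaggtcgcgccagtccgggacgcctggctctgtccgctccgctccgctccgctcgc

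In these windows, the Srf promoter held 2 CArG boxes that begin at bases -82 and -62 from the start, and 1 short form at -201. The Fos window held 2 short forms, at -129 and -66, and no CArG box. Bases more than 250 before the start were not searched, in Fos or in any other gene. Dusp1 held the full element at -143. Hes5 held a pair of Rbpj motifs, at -82 on its own strand and at -226 on the other strand. It also held a match to the letters of the CArG box at -33. Whether proteins bind any of these matches was not tested. Of the 12 immediate early genes that were higher, 9 have a window in the table, and 2 of them (Egr2 and Srf) held a CArG box, 1 (Dusp1) the full element and 9 the short form. Among the 18 with a window that were not called, 1, 3 and 9 did. Of the 27025 genes with a window, 1.81% held the CArG box, 2.03% the full element, 23.0% the short form and 28.3% the Rbpj motif. The motifs were chosen with the calls known, so these shares are descriptions.

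Other stress lists were examined as well. None of the 23 tested heat shock genes was called by limma, against 2.62% of all genes called higher and 3.7% called lower, and the median was 0.15. Hspa1a, Hspa1l and Hspb8 were on the array but were not tested, and no probe carried the symbol Hspa1b. The result does not cover these genes. Hspa8 and Hsp90ab1, for example, differed by -1.28 (SE 0.42, adjusted p = 0.102) and -0.81 (SE 0.40, adjusted p = 0.300). Among 22 tested genes of the unfolded protein and amino acid responses, 2 were higher and 3 lower, against 2.62% and 3.7% of all genes, with a median of 0.06. Ppp1r15a, which restores translation after stress, was higher by 1.38 (SE 0.28, adjusted p = 0.0114), and Atf4, the factor of that response, by 1.03 (SE 0.24, adjusted p = 0.0199), a call lost without Notch1+ replicate 1 or 2 or whole retina replicate 1 or 3 (adjusted p = 0.0558 to 0.0855). Vldlr, a lipoprotein receptor, was lower by -2.04 (SE 0.30, adjusted p = 0.00154), although its second probe differed by -0.09. Eif4ebp1, a brake on translation, and Ddit4, a stress inhibitor of mTOR, were lower by -1.99 (SE 0.48, adjusted p = 0.0269) and -1.65 (SE 0.40, adjusted p = 0.0259) and lost their calls in 4 of the 6 fits without an array.

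Among other genes with the largest rises, Rassf4, a Ras association protein, had 3726, 2545 and 2974 in Notch1+ cells and 577, 443 and 749 in whole retina (2.40, SE 0.26, adjusted p = 0.000245), with a second probe higher by 1.63 (adjusted p = 0.0474) and a further probe at 0.55 (adjusted p = 0.351). Vxn, which promotes neuronal fate in frog embryos, had 3621, 2420 and 2007 against 566, 552 and 535 (2.24, SE 0.24, adjusted p = 0.000245). Both were apart in all arrays. Cfl1, the actin-severing protein cofilin, had 3279, 1042 and 677 against 177, 212 and 188 (2.79, SE 0.58, adjusted p = 0.0121), with 2.13 without Notch1+ replicate 1 and an adjusted p of 0.0527 with the 6 E14 arrays alone. Rnf138rt1 was above background on no array of whole retina and was at least 4.23-fold higher (adjusted p = 0.000968).

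Signalling and housekeeping lists had 0 to 2 calls in either direction. The 21 tested genes of the BMP and TGF-beta pathways had none by limma (Tgfbr2, at 1.27, had the largest value), the 11 Hedgehog genes had Shh, the secreted ligand made by ganglion cells, at least 1.42-fold higher in whole retina (adjusted p = 0.0352, and up to 0.142 without whole retina replicate 3), and Ptch1 differed by 0.54 (SE 0.52, adjusted p = 0.659). Of 15 FGF genes, Fgf3, a secreted growth factor, was lower by -0.87 (SE 0.17, adjusted p = 0.00811) and Etv1, a factor downstream of FGF, by -0.95 (SE 0.26, adjusted p = 0.0443, up to 0.177 without whole retina replicate 3). Ribosomal protein genes had 2 of 77 higher, oxidative phosphorylation genes 2 of 71 lower, splicing factors 1 of 35 in each direction and histone genes 1 of 50 in each direction, with medians of -0.02, -0.03, 0.15 and -0.14. Over all genes, 2.62% were higher and 3.7% lower.

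**Figure D5:**
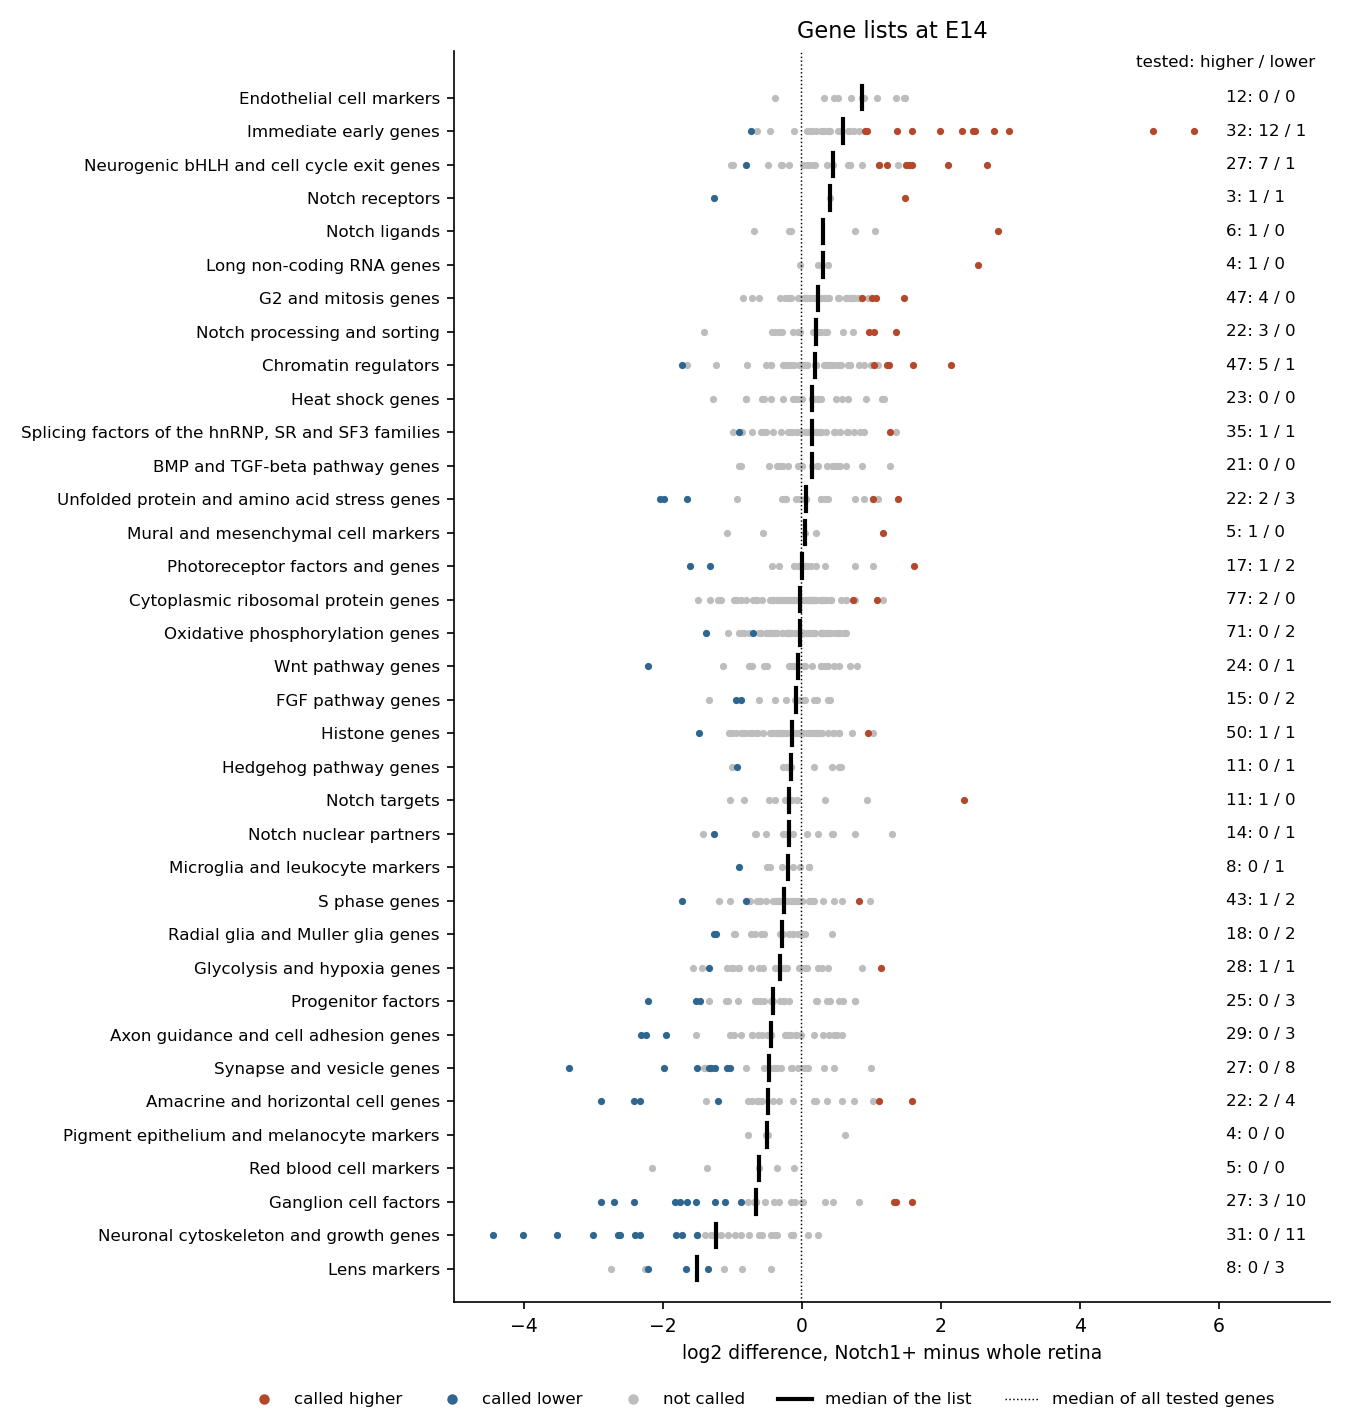
Log2 difference of E14 Notch1+ cells minus E14 whole retina (horizontal axis) of each tested member of the 36 gene lists (vertical axis), with genes called higher in red, called lower in blue and not called in grey, a black bar at the median of the list and a dotted line at the median of all tested genes (-0.012). The figures on the right give members tested, called higher and called lower, and the lists of neuronal cytoskeleton, ganglion cell and immediate early genes hold the most calls.

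Markers of cells outside the neural retina moved with the groups in part. Lens crystallins were lower in Notch1+ cells in 8 of 8 tested genes by sign and without overlap (25.6% of all tested probes), 3 of them called (Cryga, Crygb and Crygd, of which Crygb and Crygd lost their calls in 5 of the 6 fits without an array), and none was above background on any E14 Notch1+ array. Of 22 lens genes on the array only these 8 were tested. Among the E14 arrays they passed the filter on dim probes through whole retina alone. The filter itself favours this direction, so the count is a description. Their summed intensity was 674, 663 and 701 in Notch1+ cells and 1948, 5490 and 1110 in whole retina, where replicate 2 was the highest. Cryaa, for example, had 337, 1670 and 127 in whole retina. Crystallin genes resemble each other closely, so that their probes may not tell them apart. Red blood cell genes summed to 2093, 1745 and 1848 in Notch1+ cells and to 2273, 4756 and 7527 in whole retina, with none of 5 called by limma.

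Endothelial markers went the other way by value, with 11 of 12 tested genes positive, 8 without overlap (25.6% of all tested probes), a median of 0.86 and none called by limma. Their sums were 5116, 1970 and 2659 in Notch1+ cells and 1822, 1689 and 1713 in whole retina, so that Notch1+ replicate 1 was the highest, and without it the median of the list was 0.49. Cdh5, the cadherin of endothelial junctions, differed by 1.49 (SE 0.60, adjusted p = 0.189), Pecam1 by 0.86 (SE 0.44, adjusted p = 0.312) and Kdr, a receptor for vascular growth factor, by -0.38 (SE 0.26, adjusted p = 0.488). Endothelial cells also carry Notch1 and Notch4, and Klf2 and Klf4 are known in them as well. The summed intensity of the 32 tested immediate early genes, in which bright genes weigh most, was 30587, 31081 and 32019 in Notch1+ replicates 1 to 3. On the same arrays Klf2 had 228, 844 and 435, and Klf4 had 504, 2558 and 762. The part of endothelial cells in these differences was not tested. Markers of microglia had 1 of 8 tested genes, Ctss, lower (called in 3 of the 6 fits without an array), mural and mesenchymal markers had 1 of 5, Acta2, the smooth muscle actin, higher (1.17, SE 0.25, adjusted p = 0.0154, up to 0.0677 without Notch1+ replicate 1), and pigment epithelium markers had none of 4 called by limma. Among all genes, 3.7% were lower and 2.62% higher.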

How the data were processed

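The 14 arrays carry 38880 spots, of which 34312 are mouse probes and 4568 are other spots, left out of the tests. The authors deposited scanner output for each array, with the median foreground and median local background intensity of each spot in the scanned channel. The deposited values of the series are log2 values that match the background-subtracted median times 1 factor per array, with values under 1 set to 1. How the authors chose the factors is not given in the sources used here, and those values served as an alternative. Each column belonged to a sample.

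Intensities were corrected with normexp (offset 50) and quantile-normalized, and spots marked as bad were left out. Probes more than 2 SDs above local background on at least 3 of the 14 arrays were tested on the log2 scale with limma 3.58.1 in R 4.3.3 (statmod 1.5.0), with the 4 groups sharing 1 estimate of the spread and Benjamini-Hochberg adjustment over all 13683 probes. A call is an adjusted p under 0.05. A gene was represented by its probe with the highest mean over the 14 arrays. Lower bounds of fold were the mean of the brighter group against the mean, per array of the dim group, of the higher of the probe's own value and the lowest value of a probe above background. Symbols came from RefSeq through accessions (22987 probes), gene IDs (443) or the symbol given for the array (233), and 10649 mouse probes were unnamed here, leaving 16159 genes.

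Groups and replicates were taken from the labels. Same-numbered Notch1+ and whole retina arrays did not deviate together (correlations of -0.0563, 0.0166 and 0.0446), and they were not paired in the main fit. With so few arrays per group, these correlations cannot exclude that same-numbered arrays share a preparation. Genes were named by rule: the 15 largest called differences in each direction without overlap, up to 4 called genes per list and direction, genes the study discusses for E14, and all members of short lists. Further called list members and other members given as examples were added after their values were seen. The members and lists were chosen with earlier results of these data known, and the genes the study discusses were picked on these samples, so neither is independent evidence. The scripts were tested on simulated data with known differences. The alternatives were other background corrections, scalings and filters, the deposited values, the 6 E14 arrays alone, a replicate block, the re-dip mark, leaving out each array, a trended robust fit and the methods' t-test. The number of arrays limits the precision, and the median SE was 0.273 on the log2 scale. A few members of the lists are counted but not reported by name here.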

Additional observations from a re-analysis of the deposited data

Results flagged for a closer look

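For 17 of the genes examined, the log2 difference between Notch1+ cells and whole retina at E14 was itself different from that at P0, by the interaction term of the same limma fit with adjustment over all tested probes. Of the genes examined, 120 were called at E14, and many were named for a large difference there, which favours a difference between the stages. The share of all tested probes with such a stage difference is not given here, so the count of 17 is a description. Values are given as E14 minus P0. The stages were scanned on different days, and so were the P0 groups, so that stage and scan day cannot be told apart.

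More negative at E14 were Meg3, an imprinted RNA (-2.64, from 0.38 at E14 and 3.01 at P0, adjusted p = 0.0423), Sfrp2, the Wnt antagonist (-2.51, from -2.21 and 0.30, adjusted p = 0.0228), and Fbln1, a matrix protein (-2.21, from -0.56 and 1.65, adjusted p = 0.0289). Vldlr (-1.91, adjusted p = 0.0262), Tbx5 (-1.76, adjusted p = 0.0282), Cntn2 (-1.65, adjusted p = 0.0175), Irx2 (-1.21, adjusted p = 0.021) and Rbpms (-1.09, adjusted p = 0.0492) were lower in Notch1+ cells at E14, with P0 differences of -0.13, 0.23, -0.31, -0.44 and -0.02. Ccn1 was higher in Notch1+ cells at E14 (2.46) and had a larger difference at P0 (4.18), which gave a fitted -1.72 (adjusted p = 0.017). At E14, Ccn1 was above background on no array of whole retina (at least 3.23-fold higher) and Irx2 on no Notch1+ array (at least 1.69-fold lower), so that their stage differences are not exact sizes. A second Rbpms probe differed by -0.51 and a second Vldlr probe by -0.09 at E14.

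More positive at E14 were Isl2 (2.49, from 0.34 and -2.15, adjusted p = 0.0232), Pkm, a glycolytic enzyme (1.96, from 1.14 and -0.81, adjusted p = 0.0142, although a second probe differed by 0.24 at E14), and Otx2 (1.46, from 1.61 and 0.14, adjusted p = 0.00852). Acta2 (1.45, adjusted p = 0.0398), Eya2 (1.42, adjusted p = 0.0446), Penk (1.30, adjusted p = 0.024) and Mafk (1.07, adjusted p = 0.0386) were higher in Notch1+ cells at E14, with P0 differences of -0.28, -0.07, 0.20 and -0.13. Tfap2a was lower at both stages, by -1.21 at E14 and -2.61 at P0, which gave a fitted 1.40 (adjusted p = 0.0245). It was above background on no Notch1+ array at E14 (at least 1.98-fold lower), so that this is not an exact size, and a second probe differed by -0.49 at E14 (adjusted p = 0.12). A second Eya2 probe differed by 0.65 at E14 (adjusted p = 0.13).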

How the results depend on the processing

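No probe was called in the opposite direction under any alternative, and no scaling moved the median of all probes by over 0.1. The 365 higher and 443 lower probes became 817 and 923 with no filter on dim probes, 153 and 263 with the 6 E14 arrays alone (135 and 242 of them shared), 458 and 674 with the deposited value table (319 and 419 shared), 38 and 100 with the methods' t-test after Benjamini-Hochberg adjustment, and 1101 and 1267 with that test at an unadjusted p under 0.05. Leaving out 1 E14 array gave 181 to 316 higher and 274 to 321 lower probes. With the replicate block, 247 were higher and 337 lower. Other corrections and scalings, a trended robust fit, the E14 filter and the re-dip mark gave 304 to 406 higher and 362 to 548 lower probes. The cause of these changes was not tested. Dim probes limit what can be seen: 17 called probes were above background on no E14 array.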
